A study of Homo sapiens with 12 samples.

Results

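SOX9, SOX4 and SOX2 are genes of transcription factors that share an HMG box, a domain that binds the minor groove of DNA and bends it. Called H3K27ac at these loci was described in 3 human pancreatic cancer cell lines, BxPC3, Panc327 and SUIT2, per the labels. H3K27ac is an acetylation of histone H3 carried by active promoters and enhancers, and it was measured by ChIP-seq. All cells were untreated and grown under standard conditions, and 2 H3K27ac and 2 input libraries were made per line. BxPC3 and SUIT2 are established lines from a primary pancreatic tumour and from a liver metastasis of one, and each line stands for 1 tumour. The series title names SIRT6 and the integrated stress response, while the samples described here differ only in cell line and antibody, per the labels.

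The loci were chosen by position on hg19: every peak that overlapped chr17:69200000-70500000 (SOX9, given there at about 70117200 to 70122600, with its flanking desert), chr6:21580000-21620000 (SOX4) or chr3:181400000-181460000 (SOX2). These windows held 100 of the 190767 peaks of the 6 lists. Merging peaks with an overlap of 1 bp or more gave 34 regions of 58994, with 27 in the SOX9 domain, 2 in the SOX4 window and 5 in the SOX2 window. A region was called marked in a line when both of its libraries had a peak there. Of the 34 regions, 23 were marked in at least 1 line.

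SOX9 is the ductal and progenitor factor of the pancreas, and outside it directs cartilage formation and testis development. The gene stands alone in a long gene desert, whose distant enhancers act on it in a tissue-specific way. SOX4 belongs to the SOXC group of factors, acts in embryonic development and endocrine pancreas, and is a known target of TGF-beta signalling in epithelial cancers. SOX2 is a factor of pluripotent and neural stem cells and of the foregut and squamous epithelia, and is not a normal product of the adult pancreas. It lies inside the long non-coding gene SOX2-OT. RNA was not measured here, so the values below describe chromatin and not expression.

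Of the 3 genes, 2 matched the promoter table, SOX4 and SOX2, and their upstream sequences are shown for the base composition and motifs of loci that were marked in all lines (SOX4) or in BxPC3 and Panc327 (SOX2). They are the 250 bases before the annotated start, from RefSeq on GRCh38.p14, forward strand. The SOX4 stretch is chr6:21593501-21593750 and the SOX2 stretch is chr3:181711675-181711924, both on GRCh38.p14. The peaks are on hg19 and positions were not converted, so where these bases lie within the peaks was not measured. Capitals mark CCAAT boxes (letters CCAAT, or ATTGG on the other strand) and GC boxes (letters GGGCGG, or CCGCCC on the other strand).
SOX4: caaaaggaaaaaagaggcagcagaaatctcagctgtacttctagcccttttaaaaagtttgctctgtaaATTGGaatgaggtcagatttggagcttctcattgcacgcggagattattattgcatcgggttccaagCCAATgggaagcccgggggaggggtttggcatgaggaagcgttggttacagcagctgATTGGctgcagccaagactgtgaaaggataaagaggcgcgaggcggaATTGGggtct
SOX2: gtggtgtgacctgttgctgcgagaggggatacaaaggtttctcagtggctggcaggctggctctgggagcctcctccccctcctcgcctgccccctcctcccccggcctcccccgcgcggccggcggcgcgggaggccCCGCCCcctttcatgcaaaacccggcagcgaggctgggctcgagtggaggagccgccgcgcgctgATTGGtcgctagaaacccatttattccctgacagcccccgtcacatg

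The SOX4 stretch held 4 CCAAT boxes, at −181, −114, −57 and −10 (bases relative to the start), and the SOX2 stretch held 1, at −47, with a GC box at −112. Over 35116 promoters of the same table and length, 32.0% held a CCAAT box and 42.6% a GC box on either strand. A TATA box (TATAAA) and a form of the SOX core motif, the letters ACAAT, were searched on both strands too. Neither had a match in either stretch, and 10.7% and 24.6% of all promoters hold them. Other forms of the SOX motif were not searched, so their absence is not shown. CCAAT and ACAAT share their last letters, CAAT, and the other motifs share no such run. GC content was 48.8% in SOX4 and 68.8% in SOX2, with 8 and 20 CpG dinucleotides. A match describes letters only.

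Across the whole series, the lists held 27776 to 38335 peaks, and covered 48.7 and 54.6 Mb in BxPC3, 34.1 and 46.3 Mb in Panc327, with 60.1 and 63.3 Mb in SUIT2. The median peak was 1070 and 1030 bp wide in BxPC3, 1008 and 1292 bp in Panc327, with 1504 and 1481 bp in SUIT2, so SUIT2 peaks were wider in general. The Panc327 libraries stood apart from each other, with a median fold of 23.2 in replicate 1 and 11.1 in replicate 2. Fold, as deposited by the authors, compares the ChIP pile-up at a summit with the background around it, and it is used here only within a list. Whether replicates are separate cultures is not stated in the labels, and the SDs and p-values cover only the spread between these libraries. No list states its depth; the pile-up behind a peak, recovered from the fold and −log10 p, is given below for the peaks that matter.

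All 6 libraries had a peak over the SOX9 start and peaks in the SOX4 window, and 4 had peaks in the SOX2 window, where neither SUIT2 library had one. In the SOX9 domain 9.75 kb was called on average in BxPC3, 2.93 kb in Panc327 and 47.8 kb in SUIT2. Of all regions marked in the genome, 29.4% were marked in all lines, so regions shared by all lines, as at SOX9 and SOX4, are common.

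At SOX9, a single peak lay over the gene start in each library, within a merged region at chr17:70115904-70121454 (hg19). It was 2544 and 2602 bp wide in BxPC3, 1536 and 1544 bp in Panc327, with 4633 and 5463 bp in SUIT2. The lines did not overlap in width. The Panc327 peaks lay inside those of both other lines, and the SUIT2 peaks reached furthest into the gene. The summits of all 6 libraries fell within 241 bp of each other, between 238 and 479 bp after the approximate start of the gene. The recovered summit pile-up was 69.2 and 82.1 in BxPC3, 109 and 41.0 in Panc327, with 259 and 281 in SUIT2. BxPC3 pile-ups were not whole numbers, so they are not plain counts of fragments. Pile-ups were not corrected for depth here and are not compared between lines. The fold was 23.7 and 24.7 in BxPC3, 38.2 and 8.35 in Panc327, with 60.6 and 61.2 in SUIT2, each relative to its own list. Ranked within its list by −log10 q, the SOX9 peak stood at percentile 64.2 and 66.0 in BxPC3, 61.6 and 33.1 in Panc327, with 77.4 and 78.6 in SUIT2. The SOX9 start was therefore a peak of middle to upper rank in every list except that of Panc327 replicate 2, where it stood below the median.

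**Figure D1:**
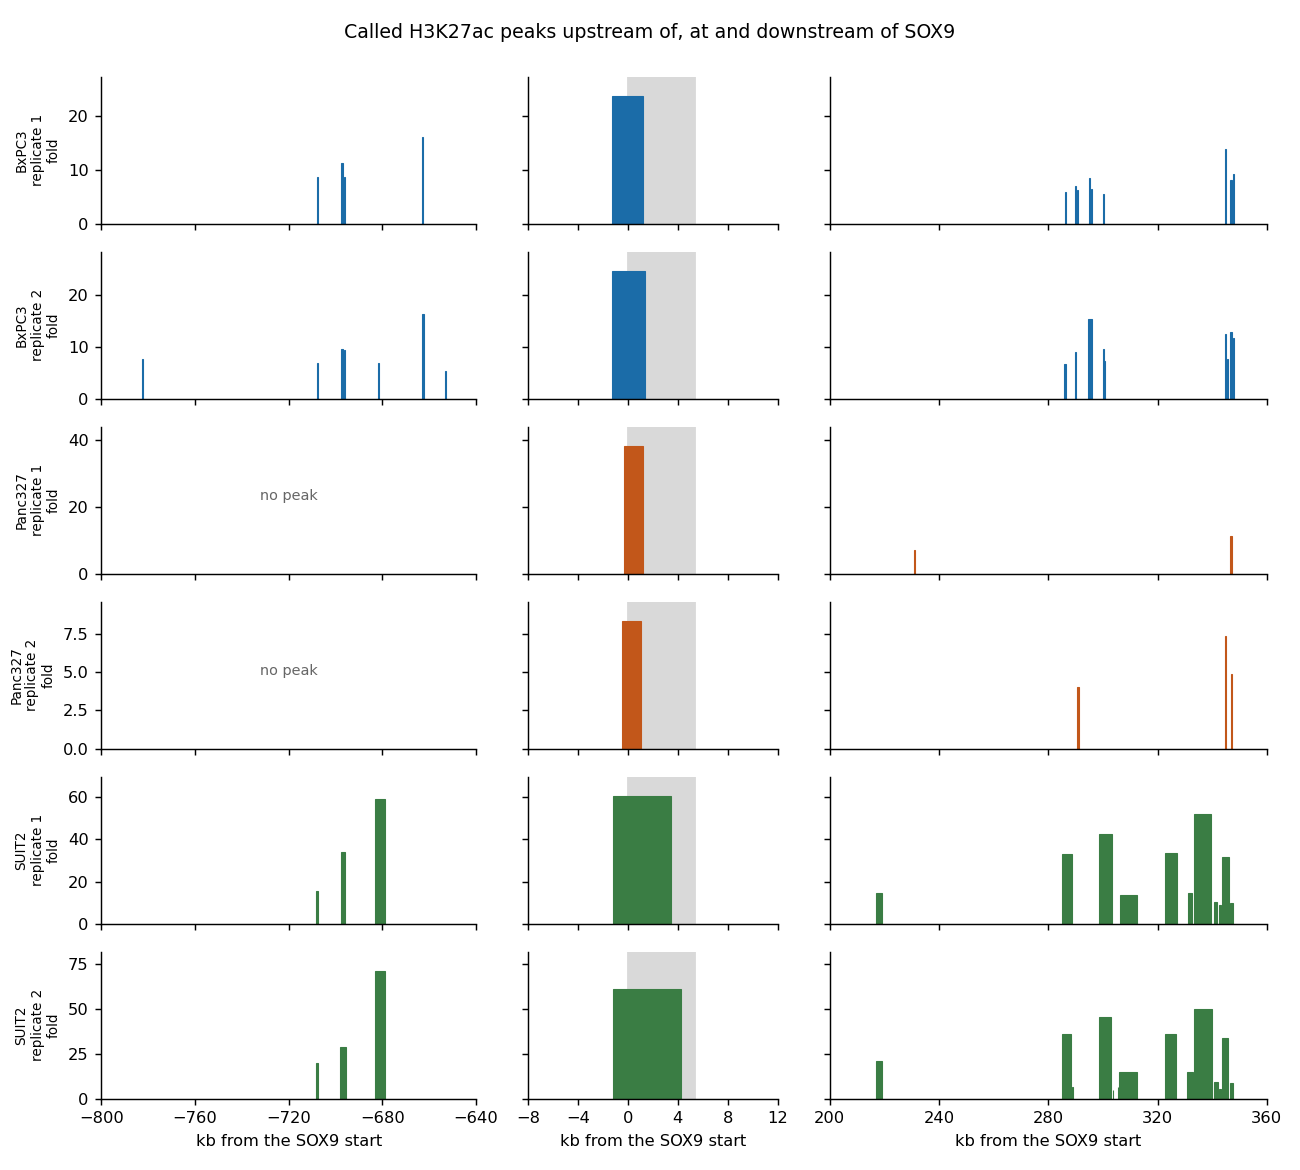
Called H3K27ac peaks in 3 stretches of the SOX9 domain, as bars over the called bases with the authors' fold as height (each library on its own scale), against distance in kb from the approximate SOX9 start; grey marks the gene. The 2 peaks at −145 kb (Panc327 replicate 1) and −90.6 kb (BxPC3 replicate 2) lie outside the stretches drawn. All 6 libraries had 1 peak at the gene, Panc327 had none in the left panel, and the broad downstream bars stand in the SUIT2 rows.

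The called length of the whole SOX9 domain, 1300 kb, was 8.05 and 11.5 kb in BxPC3, 2.73 and 3.14 kb in Panc327, with 46.8 and 48.7 kb in SUIT2. Means were 9.75 ± 2.4 kb in BxPC3, 2.93 ± 0.295 kb in Panc327 and 47.8 ± 1.32 kb in SUIT2 (SD, n = 2 each). The differences of the means were 6.82 kb for BxPC3 minus Panc327, −38.0 kb for BxPC3 minus SUIT2 and −44.8 kb for Panc327 minus SUIT2. The first of these was 4.37 kb with peaks of −log10 q of at least 20 and 4.33 kb with equal numbers of peaks. No 2 lines overlapped. The spread within each line was small beside the differences from SUIT2. For BxPC3 minus Panc327, 6.82 kb stood beside a BxPC3 SD of 2.4 kb. Line accounted for 0.997 of the variance between libraries, the largest share among the 15 ways of pairing the 6 libraries (exact permutation test, one-sided p = 0.0667, adjusted over 5 tests 0.0833). That p is the smallest this design can give, and 2 libraries against 2 cannot pass 0.05, so no pair of lines was tested. Both SUIT2 libraries above the other 4 is in itself common: it held for 43.2% of the 2140 tiles of 1300 kb of the genome that had a peak. A BxPC3 minus SUIT2 difference as low as that of the SOX9 domain occurred in 4.72% of those tiles, and a Panc327 minus SUIT2 difference as low in 5.37%. Per Mb called in the whole list, the domain held 165 and 210 bp in BxPC3, 80.01 and 67.9 bp in Panc327, with 779 and 769 bp in SUIT2, which kept the same order.

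Within its own list the domain was not rich in called bases in BxPC3 or Panc327. Tiles of the same length with at least as much called length made up 67.9% and 61.6% of tiles in BxPC3, 72.6% and 74.5% in Panc327, with 19.9% and 20.3% in SUIT2.

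**Figure D2:**
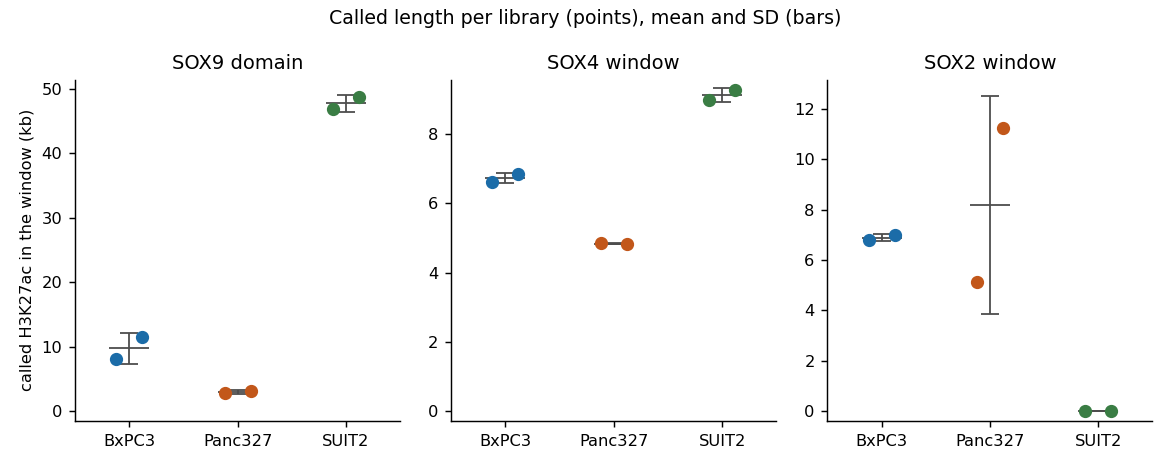
Called H3K27ac per library in kb (points, left to right replicate 1 and 2) in the SOX9 domain, the SOX4 window and the SOX2 window, with the mean and SD of each line (bars, n = 2). The lines do not overlap in the SOX9 and SOX4 panels, and in the SOX2 panel the SUIT2 libraries are at 0 while the Panc327 libraries lie on either side of BxPC3.

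Upstream of SOX9, all 4 regions marked in a line had their centres between −708 and −663 kb from the gene start. The upstream side of the domain, 916 kb, held 4 and 8 peaks in BxPC3, 1 and 0 in Panc327, with 3 and 3 in SUIT2. Its called length was 2.06 and 4.07 kb in BxPC3, 0.308 and 0 kb in Panc327, with 7.53 and 7.67 kb in SUIT2. A pair of neighbouring regions, chr17:69408665-69409926 and chr17:69419324-69421669, were marked in BxPC3 and SUIT2 and had no peak in Panc327. At the first of them the BxPC3 peaks were weak, 325 and 349 bp at percentile 14.0 and 6.85 of the lists. SUIT2 called 1199 and 1251 bp there. At the second of them BxPC3 called 1152 and 1141 bp, Panc327 called 0 bp, and SUIT2 called 2031 and 2346 bp.

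Between the lines, the next regions differed. The region at chr17:69434118-69438416 was the strongest upstream region of SUIT2, with a fold of 59.0 and 71.1, at percentile 78.3 and 83.4 of its lists. Its −log10 q in SUIT2, 394 and 500, was above that of the SOX9 start, 381 and 412. By fold it was below the start in replicate 1 (60.6) and above it in replicate 2 (61.2). BxPC3 replicate 1 and both Panc327 libraries had no peak in that upstream region, and BxPC3 replicate 2 had 1 of 237 bp with a fold of 6.87. The region at chr17:69454034-69455001 was marked in BxPC3 alone, with a fold of 16.1 and 16.3, the strongest upstream peak of that line. The strongest upstream peaks of BxPC3 and SUIT2 were thus at different places.

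Downstream of SOX9 lay the larger block. That side, 379 kb long, held 3.45 and 4.78 kb of called bases in BxPC3, 0.882 and 1.60 kb in Panc327, with 34.7 and 35.6 kb in SUIT2. Its share of the called bases of the domain was 42.9% and 41.7% in BxPC3, 32.4% and 50.9% in Panc327, with 74.0% and 73.0% in SUIT2. In the RefSeq table on GRCh38.p14 the next named neighbours on that side are the long non-coding RNA genes LINC02003, LINC00673 and LINC00511. Which of the peaks lie in those genes was not determined, since that table is on another build.

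Joined at the gap customary in super-enhancer calling, the downstream SUIT2 peaks, except the region at chr17:70334034-70336279, formed a single cluster in both libraries, at chr17:70402381-70464950 in replicate 1 and chr17:70402277-70464739 in replicate 2. It spanned 62.6 and 62.5 kb, with 10 and 13 peaks and 32.6 and 33.4 kb of called bases. It ranked 74 of 18134 and 88 of 18540 clusters of those lists by called bases, in the top 0.408% and 0.475%. In BxPC3 the first part of that stretch held a smaller cluster: that at chr17:70403213-70417403 in replicate 1 had 6 peaks and 2.13 kb called, and that at chr17:70403109-70417954 in replicate 2 had 5 peaks and 2.82 kb. Its far end held another in BxPC3. With a gap of 5 kb this was chr17:70461901-70465107 in replicate 1 (3 peaks, 1.32 kb) and chr17:70461865-70465142 in replicate 2 (4 peaks, 1.96 kb). The largest cluster of the domain in Panc327 was the gene start itself, with 1.54 kb in each library. With a gap of 5 kb the largest SUIT2 cluster held 18.1 kb in each library, and with a gap of 25 kb the cluster was as above.

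On the downstream side, 7 regions were marked in SUIT2 alone. The largest were chr17:70450475-70457191 (6717 bp merged), chr17:70423134-70429792 (6659 bp) and chr17:70439885-70444422 (4538 bp), followed by chr17:70334034-70336279 (2246 bp) and chr17:70448069-70450047 (1979 bp). The first had a fold of 52.2 and 50.1 and a pile-up of 223 and 230 fragments in SUIT2. Of the 18 marked regions of the domain, SUIT2-only regions made up 38.9%, against 17.7% of all 43240 marked regions. Neighbouring peaks of 1 cluster are not independent, so this count mostly describes the cluster, with chr17:70334034-70336279 outside it. The count was 3 when peaks up to 1 kb apart were merged, and 14 when a library had to cover 50% of a region.

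The other marked regions of the domain were 3 in BxPC3 alone (16.7%, against 17.6% of all marked regions) and 4 in BxPC3 and SUIT2 with no Panc327 peak (22.2%, against 5.71%). A further 2 were marked in all lines (11.1%, against 29.4%), and 2 had other patterns. Downstream, the regions missing from Panc327 were chr17:70402277-70405835, with a fold of 5.91 and 6.77 in BxPC3 and 32.8 and 36.0 in SUIT2, and chr17:70415686-70420505. The second had a fold of 5.55 and 9.58 in BxPC3 and 42.6 and 45.3 in SUIT2. The 9 regions not marked in any line were 8 called in a single library and 1 called in BxPC3 replicate 1 and Panc327 replicate 2. No region was marked in Panc327 alone, against 7.90% of all marked regions. The 2 regions of the domain in all lines were the gene start and chr17:70463642-70465142, at the far end of the downstream block about 347 kb from the gene. That distal region had a called length of 861 and 1113 bp in BxPC3, 490 and 439 bp in Panc327, with 1309 and 1041 bp in SUIT2. With peaks of −log10 q of at least 20 alone, 1 region of the domain was marked in all lines, 1 in BxPC3 only and 1 in BxPC3 and SUIT2 with no Panc327 peak. That last count, 4 above, was also 1 with equal numbers of peaks per list and with 50% of a region covered. The region chr17:70460768-70463362 was called in every library except Panc327 replicate 1.

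The overlap of called bases in the domain was bounded by the differences in called length. The Jaccard index, the length called in both libraries over that called in either, was 0.621 within BxPC3, 0.444 within Panc327 and 0.867 within SUIT2. Between lines it averaged 0.224 for BxPC3 with Panc327, 0.124 for BxPC3 with SUIT2 and 0.0449 for Panc327 with SUIT2, over 4 pairs each. Pairs of the same line exceeded the others by 0.513 on average (exact permutation test over 15 pairings, one-sided p = 0.0667, adjusted 0.0833, the smallest p the design allows). The index cannot exceed the shorter called length over the longer, and that ceiling averaged 0.31 for BxPC3 with Panc327, 0.204 for BxPC3 with SUIT2 and 0.0615 for Panc327 with SUIT2. The Jaccard test is therefore not separate from the test of length. As a share of the shorter called length, shared bases were 0.928 within BxPC3, 0.663 within Panc327 and 0.947 within SUIT2. Between lines that share averaged 0.767 for BxPC3 with Panc327, 0.661 for BxPC3 with SUIT2 and 0.742 for Panc327 with SUIT2. Pairs of the same line exceeded the others by 0.122 on this measure, chosen after the data were seen (exact permutation test, one-sided p = 0.0667), while the Panc327 pair lay within the range of pairs of different lines, 0.604 to 0.842.

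At SOX4 the layout was simple and shared: a region at chr6:21586779-21590522 and a broader one at chr6:21593166-21598870, both marked in all lines. The broader region was called over 4301 and 4355 bp in BxPC3, 2814 and 3027 bp in Panc327, with 5356 and 5631 bp in SUIT2. The lines did not overlap there. Its strongest peak had a fold of 43.9 and 51.9 in BxPC3, 58.6 and 7.04 in Panc327, with 67.4 and 61.8 in SUIT2. That peak stood at percentile 85.5 and 86.8 of the lists in BxPC3, 69.0 and 46.5 in Panc327, with 80.8 and 79.0 in SUIT2. Recovered pile-ups at those summits were 133 and 174 in BxPC3, 143 and 71.0 in Panc327, with 288 and 284 in SUIT2, and are not compared between lines. Under the Panc327 replicate 2 peak the local background was 3.24 times the genome-wide level of that list, against 1.00 times in Panc327 replicate 1, and the part of this in its low fold was not tested.

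Total called length in the SOX4 window was 6.62 and 6.85 kb in BxPC3, 4.84 and 4.83 kb in Panc327, with 8.99 and 9.29 kb in SUIT2. Means were 6.73 ± 0.156 kb in BxPC3, 4.83 ± 0.012 kb in Panc327 and 9.14 ± 0.212 kb in SUIT2 (SD, n = 2 each), so the lines differed by more than the spread between libraries. The share of variance that went with the line was 0.996 (exact permutation test, one-sided p = 0.0667, adjusted 0.0833). Per Mb called in the list, however, the window held 136 and 125 bp in BxPC3, 142 and 104.2 bp in Panc327, with 150 and 147 bp in SUIT2, and BxPC3 and Panc327 overlapped (exact permutation test, one-sided p = 0.4, an alternative chosen after the data were seen). The Jaccard index was 0.961 within BxPC3, 0.840 within Panc327 and 0.934 within SUIT2. Between lines it averaged 0.718 for BxPC3 with Panc327, 0.737 for BxPC3 with SUIT2 and 0.529 for Panc327 with SUIT2. Pairs of the same line exceeded the others by 0.2502 (exact permutation test, one-sided p = 0.0667, adjusted 0.0833). This repeats the test of length, since the averages between lines equal the ratio of the shorter called length to the longer, 0.718, 0.737 and 0.529. As a share of the shorter called length, shared bases were 0.998 to 1.00 in pairs of different lines, against 0.996 within BxPC3, 0.914 within Panc327 and 0.982 within SUIT2, so the order was reversed (excess −0.0356, exact permutation test, one-sided p = 1.00).

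The SOX4 window was rich in called bases in every list. Tiles of 40 kb with at least as much made up 4.63% and 5.20% of tiles in BxPC3, 5.18% and 9.17% in Panc327, with 4.28% and 4.30% in SUIT2.

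**Figure D3:**
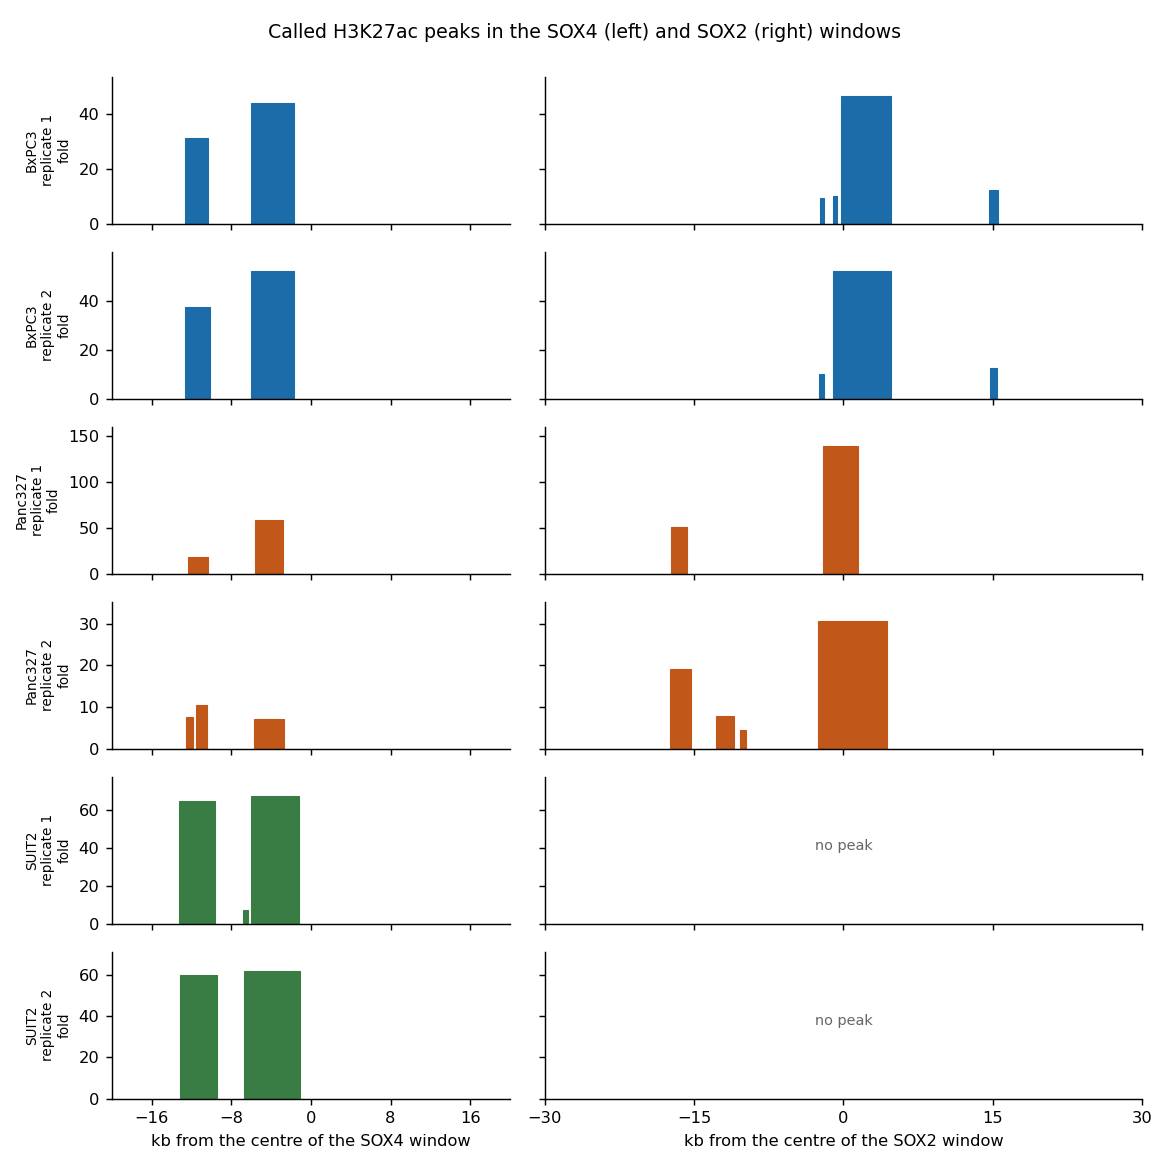
Called H3K27ac peaks in the SOX4 window (left) and the SOX2 window (right), as bars over the called bases with the authors' fold as height (each library on its own scale), against distance in kb from the window centre. All 6 libraries had the same pair of SOX4 regions, while at SOX2 BxPC3 and Panc327 shared a central region, each had a flanking region of its own, and SUIT2 had no peak.

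At SOX2 the lines differed in whether the locus was marked at all. Total called length in the window, 60 kb, was 6.78 and 6.98 kb in BxPC3, 5.11 and 11.3 kb in Panc327, and 0 kb in both SUIT2 libraries. Means were 6.88 ± 0.142 kb in BxPC3 and 8.18 ± 4.35 kb in Panc327 (SD, n = 2 each). The BxPC3 values lay between those of Panc327, so these lines were not told apart by length in kb. Over all 3 lines, line accounted for 0.804 of the variance (exact permutation test, one-sided p = 0.200, adjusted 0.200). Without either Panc327 library in turn the share was 1.00, but that left Panc327 a single library with no spread of its own. The share was 0.796 and 0.794 without BxPC3 replicate 1 and 2, and 0.713 without either SUIT2 library. Per Mb called in the list, the window held 139 and 128 bp in BxPC3 and 150 and 243 bp in Panc327, which did not overlap. On that scale, chosen after the data were seen, the share was 0.902 (exact permutation test, one-sided p = 0.0667, the smallest p the design allows). A peak in all BxPC3 and Panc327 libraries and none in SUIT2 occurred in 3.91% of 22108 tiles of 60 kb. Tiles with at least as much called length as the window made up 7.04% and 8.06% in BxPC3 and 6.78% and 2.14% in Panc327, and tiles with no peak 31.6% and 30.1% in SUIT2.

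The SUIT2 lists had no peak from 692 kb before the window to 623 kb after it, a stretch of 1374 kb. Stretches at least as long numbered 283 of 29960 gaps between neighbouring peaks in replicate 1 and 281 of 31398 in replicate 2, assembly gaps included. These are counts of gaps, and long gaps cover more bases than short ones. The share of the genome inside such stretches was not measured. Within 1 Mb of the window BxPC3 had 24 and 23 peaks, Panc327 13 and 33, and SUIT2 4 and 4. The absence in SUIT2 was thus not limited to the gene. Before the window Panc327 replicate 1 also had no peak for 692 kb, so that side was not particular to SUIT2. After the window the nearest peak was 40.6 and 40.3 kb away in BxPC3 and 139 and 40.3 kb in Panc327. A list holds only peaks with a −log10 q of at least 8.28 and 8.34 in SUIT2, so a weaker signal would not be seen.

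The central SOX2 region, chr3:181427476-181434761, was called over 5872 and 6297 bp in BxPC3, 3555 and 6854 bp in Panc327, and 0 bp in SUIT2. The fold of its strongest peak was 46.5 and 52.1 in BxPC3 and 140 and 30.7 in Panc327. Within the lists that peak stood at percentile 86.5 and 86.9 in BxPC3 and 99.0 and 98.8 in Panc327. By −log10 q it ranked 288 of 27776 peaks in Panc327 replicate 1 and 343 of 29139 in replicate 2. It was among the strongest peaks of both Panc327 lists although their folds differed. Recovered summit pile-ups were 137 and 175 in BxPC3 and 622 and 202 in Panc327, and are not compared between lines. The summits of both BxPC3 libraries and Panc327 replicate 1 lay within 12 bp of each other, at positions 181430164 to 181430176, and that of Panc327 replicate 2 lay at 181431160.

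Flanking marks differed between BxPC3 and Panc327. On one side, chr3:181412570-181414652 was marked in Panc327 alone, over 1555 and 2083 bp, with a fold of 51.4 and 19.2 and percentile 78.2 and 87.4. On the other side, chr3:181444623-181445533 was marked in BxPC3 alone, over 911 and 687 bp, with a fold of 12.3 and 12.48. A further 2 regions, chr3:181417186-181418964 and chr3:181419639-181420179, were called in Panc327 replicate 2 only. Marked regions of the window were thus 1 without SUIT2, 1 of BxPC3 alone and 1 of Panc327 alone, classes that hold 5.21%, 17.6% and 7.90% of all marked regions. The Jaccard index was 0.894 within BxPC3 and 0.454 within Panc327, and between these lines it averaged 0.357, between 0.242 and 0.474. It was not defined within SUIT2, so the layout was not tested.

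Local background was raised in Panc327 around both SOX2 and SOX9. It was recovered from the fold and −log10 p and is given as a ratio to the genome-wide level of each list. Under the SOX2 peaks it was 1.00 to 1.05 in BxPC3 replicate 1, 1.00 to 1.35 in BxPC3 replicate 2, 2.37 to 2.71 in Panc327 replicate 1, and 1.96 to 3.53 in Panc327 replicate 2. In Panc327 replicate 1 it was 2.37 under the peak with a fold of 140 and 2.71 under that with a fold of 51.4. The median over peaks within 1 Mb of the window was 1.00 and 1.00 in BxPC3, 1.85 and 1.97 in Panc327, with 1.33 and 1.00 in SUIT2. Ratios of 2 or more were found for 17.8% and 8.79% of all peaks in BxPC3, 14.1% and 17.9% in Panc327, with 4.16% and 2.29% in SUIT2. Around the SOX9 domain the median was 1.14 and 1.00 in BxPC3, 1.68 and 1.77 in Panc327, with 1.00 and 1.00 in SUIT2. Around the SOX4 window it was 1.05 and 1.00 in BxPC3, 1.36 and 1.18 in Panc327, with 1.00 and 1.00 in SUIT2. Over all peaks of a list the median was 1.23 and 1.08 in BxPC3, 1.26 and 1.36 in Panc327, with 1.09 and 1.00 in SUIT2. The part of the background in these results was not tested.

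**Figure D4:**
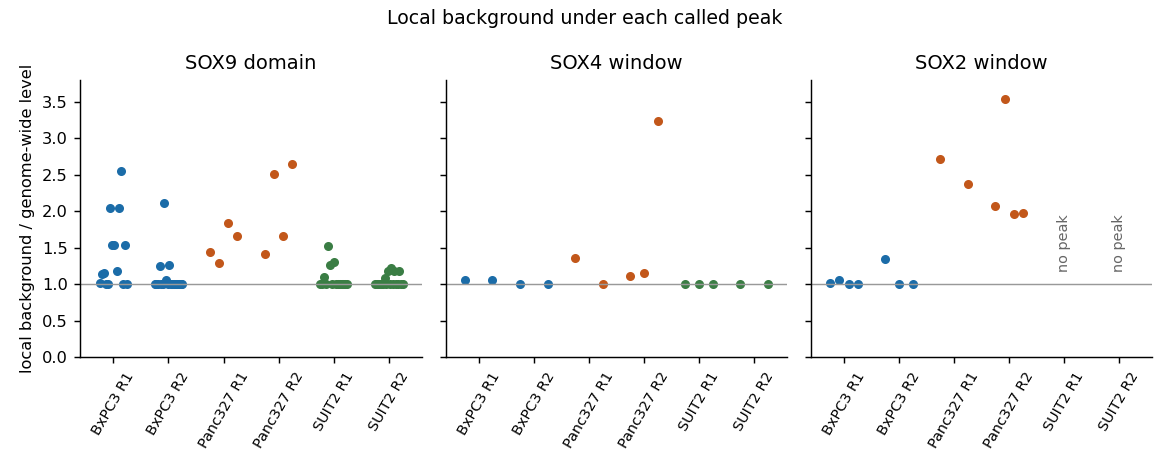
Local background under each called peak of the SOX9 domain, the SOX4 window and the SOX2 window, as a ratio to the genome-wide level of the list (line at 1), by library; each point is a peak. The Panc327 points of the SOX2 window lie between 1.96 and 3.53, above the BxPC3 points, which reach 1.35.

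Set side by side within each list, the 3 genes kept the same order by −log10 q. This compares the SOX9 start with the widest region of the SOX4 and SOX2 windows, and leaves out the distant regions of the SOX9 domain. SOX2 ranked above SOX4 and SOX4 above SOX9 in both BxPC3 and both Panc327 libraries, and SOX4 ranked above SOX9 in both SUIT2 libraries, which had no SOX2 peak. In BxPC3 the margin between SOX2 and SOX4 was narrow, with −log10 q of 192 and 184 in replicate 1 and 250 and 249 in replicate 2. In Panc327 it was wide, with 1133 and 224 in replicate 1 and 228 and 35.9 in replicate 2. Ranked by fold, SOX9 (8.35) stood above the widest SOX4 region (7.04) in Panc327 replicate 2. The other SOX4 region reached a fold of 10.49 in that library, above SOX9. SUIT2 had −log10 q of 436 at SOX4 and 381 at SOX9 in replicate 1, and 417 and 412 in replicate 2.

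**Figure D5:**
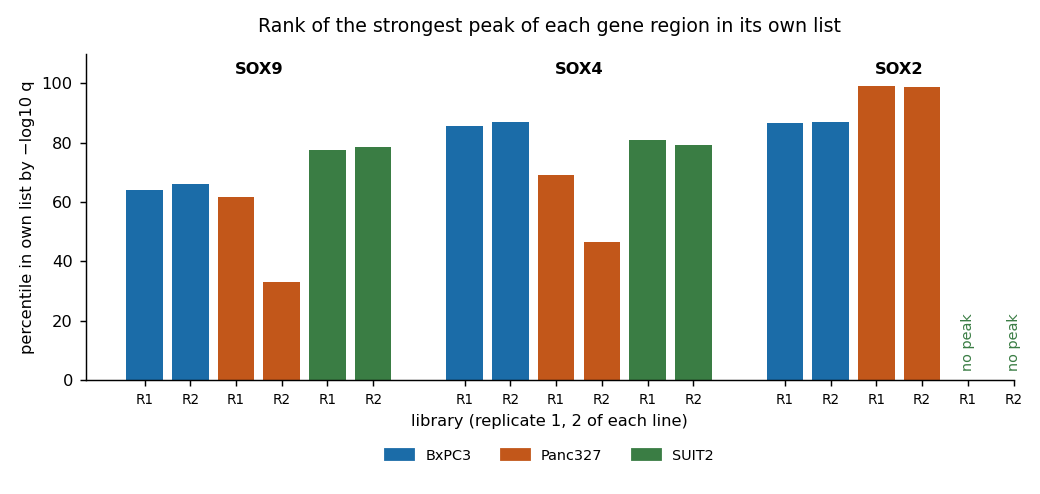
Percentile, in its own list by −log10 q, of the strongest peak in the SOX9 gene region and in the widest region of the SOX4 and SOX2 windows, for each library. SOX2 bars are highest in Panc327 (99.0 and 98.8) and absent in SUIT2, and SOX9 bars lie below SOX4 bars in each library.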

How the data were processed

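H3K27ac peak lists of 6 libraries (BxPC3, Panc327 and SUIT2, 2 each) were used; the 6 input libraries had no list here. Tools named per the submitters' processing notes are MACS2, Bowtie (1.1.1) and bcl2fastq (1.8.4), with build hg19; MACS2 settings are not given in the sources used here. Peaks had been called per library by the authors. The deposited fold is a ratio of ChIP signal at the summit to background nearby. Significance was deposited as −log10 of the p-value and of the q-value, and every −log10 p was at least 10.0. The score column was not used. Chromosomes 1 to 22 and X were kept.

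Pile-up and local background were recovered from the fold and −log10 p on the form MACS2 is known to use, the fold as (pile-up + 1) over (background + 1) and p as a Poisson tail (99.99 to 100% of peaks solved). The genome-wide level is the commonest background of a list. BxPC3 pile-ups were not whole numbers, so they are not plain counts of fragments and may not be in the same unit as those of the other lines. The calculations were tested on simulated data. Background was recovered within 0.05 for 1782 of 1851 whole and 2904 of 2981 scaled pile-ups. Simulated peaks with a −log10 p too large to compute were left out, so recovery was not tested for the strongest peaks. Alternatives were a −log10 q of at least 20, equal numbers of peaks, leaving out each library, a replicate block, other overlaps, merging distances and gaps, and, chosen after the data were seen, scaling per Mb called, shared bases over the shorter called length and the alternatives to the differences.

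Lengths and Jaccard indices were tested by exact permutation over the 15 ways of pairing 6 libraries, with Benjamini-Hochberg adjustment over 5 tests. Tiles were taken over the genome, keeping those with a peak in any list. Regions named in the SOX4 and SOX2 windows are all those marked. In the SOX9 domain they are the gene region, per line the 5 line-only regions with most called bases, the 5 widest in all libraries and the 3 widest clusters per line, of which those with values here are named; the others named were chosen after their values were seen. Members and lists were chosen with earlier results of these data known. Gene positions on hg19 were taken only for SOX9, from the definition of the loci, so no pathway list or likeness to other genes was computed. Software was scipy 1.17.1, pandas 2.3.3, numpy 2.4.6 and matplotlib 3.10.9 under Python 3.11.15.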

Additional observations from a re-analysis of the deposited data

How the results depend on the processing

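Without each library in turn, the share of variance between lines was 0.996 to 0.999 in the SOX9 domain, 0.995 to 0.998 in the SOX4 window and 0.713 to 1.00 in the SOX2 window. The excess of the Jaccard index within lines was 0.377 to 0.622 at SOX9 and 0.22 to 0.268 at SOX4. With the replicate number as a replicate block (6 ways of pairing), the statistics were the same, 0.997, 0.996 and 0.804 for length at SOX9, SOX4 and SOX2 and 0.513 and 0.25 for the Jaccard excess at SOX9 and SOX4; the smallest p the block allows is 0.167. Libraries of the same number in different lines had a mean Jaccard index at SOX9 of 0.126, against 0.136 for different numbers, so the number was not taken to pair them. With shared bases taken over the shorter called length in place of the Jaccard index, an alternative chosen after the data were seen, the excess within lines was 0.122 at SOX9 and reversed to −0.0356 at SOX4, where the Jaccard index between lines stood at the ceiling set by called length. The design cannot pass 0.05, so these tests say nothing of stability.

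The BxPC3 minus Panc327 difference at SOX2 was −4.37 to 1.77 kb without each library, and it reversed to 1.77 kb without Panc327 replicate 2; the cause was not tested. With −log10 q of at least 20 the BxPC3 minus Panc327 difference was 4.37 kb at SOX9 and 2.25 kb at SOX4, and BxPC3 minus SUIT2 was −40.6 kb at SOX9 and −2.12 kb at SOX4. With equal numbers of peaks (27776 per list) BxPC3 minus Panc327 at SOX9 was 4.33 kb.

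Counts of regions depended more on the rules. In the SOX9 domain, −log10 q of at least 20 gave 1 region of BxPC3 only, 1 in all lines and 1 missing from Panc327, and equal numbers gave 1 of BxPC3 only and 1 missing from Panc327. Requiring 50% of a region to be covered gave 14 of SUIT2 only, 0 in all lines, 1 missing from Panc327 and 0 of other patterns there, 0 in all lines and 2 of other patterns at SOX4, and 0 missing from SUIT2 and 1 of another pattern at SOX2. Merging peaks up to 1 kb apart gave 3 of SUIT2 only at SOX9. Without each library, BxPC3 only was 3 to 6, Panc327 only 0 to 2 and other patterns 1 to 2 at SOX9, SUIT2 only 0 to 1 at SOX4, and Panc327 only 1 to 3 at SOX2; BxPC3 only was 6 without BxPC3 replicate 1 and Panc327 only was 2 without Panc327 replicate 2.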
